A study of Mus musculus and Rattus norvegicus with 6 samples.

Results

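Integrins and the proteins of focal adhesions were examined in mouse SMCs (smooth muscle cells) after knockdown of the transcriptional coactivators YAP and TAZ. The set held 45 genes, chosen by symbol, of 55573 in the table. They were the 18 alpha and 8 beta integrin genes and 19 genes of focal adhesion adaptors. Bulk RNA-seq had been made from 2 libraries of cells given a control siRNA (siCo) and 2 libraries of cells given siRNAs against YAP and TAZ (siYAP/TAZ), with the genotype given as wild type in all 4. According to the sample labels these were MOVAS cells, an aortic smooth muscle line of the mouse. Figure legends of the study, both in its main text and in its supplement, instead speak of primary SMCs of the penis. The samples of the accompanying qRT-PCR are called biologically independent in a legend, but no source used here states this of the sequenced libraries. The p-values therefore measure only how far these libraries spread, and part or all of that spread may be technical. The siRNA list holds 2 mixes against YAP and TAZ, and the mix given to each sequenced culture is not named.

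An integrin is a receptor made of an alpha and a beta chain, and the pair decides which matrix protein is bound. Inside the cell, talin and kindlin bind the beta tail, vinculin and the complex of ILK, PINCH and parvin join them, and kinases, docking proteins and LIM proteins connect the adhesion to actin and to signaling. In smooth muscle these adhesions carry the force of contraction to the matrix. They also stand upstream of YAP/TAZ in mechanotransduction, because tension on adhesions and actin promotes the nuclear location of both coactivators.

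The libraries held 17192309 to 18751368 counts each. Yap1 had 21.9 and 23.5 FPKM (the count per kilobase of exon, scaled to the total count of the library) in the siCo libraries and 1.87 and 2.03 FPKM in the siYAP/TAZ libraries. Wwtr1, which encodes TAZ, had 56.5 and 59.1 FPKM against 16.8 and 17.7 FPKM. Both targets were lower in each siYAP/TAZ library, as their labels say. Of the smooth muscle markers, Acta2 averaged 140 FPKM in siCo cells, Tagln 35.5 FPKM, Myl9 78.5 FPKM and Smtn 25.3 FPKM, while Myh11 averaged 1.29 FPKM and Myocd 0.132 FPKM. Of 7 endothelial markers in the same cells, Cdh5 averaged 42.2 FPKM, Emcn 22.3 FPKM and Pecam1 12.9 FPKM. The others were lower, with Kdr at 4.34, Tek at 1.81, Cldn5 at 1.08 and Vwf at 0.285 FPKM.

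Each gene was tested by the quasi-likelihood method of edgeR, with p-values adjusted over all 15479 genes that passed a filter on low counts. Of the 45 genes, 41 passed that filter, and at an adjusted p under 0.05 from edgeR 17 were higher and 11 lower in siYAP/TAZ cells. These 28 genes are 68.3% of those tested, beside 55.4% of all tested genes (27.6% higher and 27.7% lower). The members were chosen with earlier results of these data known, so their shares are descriptions only. When genes had to change by at least 1.5-fold as well, 8 of the 41 were higher and 5 lower, beside 13.7% and 9.66% of all tested genes. At 2-fold or more, 5 were higher and 2 lower, beside 7.14% and 3.15%. Among these, Itga11 and Itgae rest on at most 28 and 19 counts per library, and both lost the call in DESeq2. The fall of Bcar1 was a log2 value of -1.004, and -0.96 with upper-quartile scaling. The siCo and siYAP/TAZ libraries did not overlap in FPKM for 37 of the 41 genes, which was so for 77.2% of all tested genes. On the scale log2(FPKM + 1) with limma the split was 10 higher and 12 lower, where genes under a mean of 0.5 FPKM were not tested. In that fit 3071 of all 14219 genes tested were higher and 4117 lower. Among genes averaging 5 FPKM or more, 21 of 27 members passed, beside 67.7% of all such genes. The 4 genes below the filter were the leukocyte integrins Itgad, Itgal, Itgam and Itgax.

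The 2 kinds of protein differed in size of change, which was not tested between them. The 22 integrins tested had a median absolute log2 fold change of 0.50 and the 19 adaptors one of 0.18, beside 0.33 over all genes tested. Of the integrins, 12 were higher and 4 lower, beside 27.6% and 27.7% of all tested genes. Of those 12, 8 rose by at least 1.5-fold, as did 13.7% of all tested genes. None of the 19 adaptors rose by as much, and 3 of them fell by as much, beside 9.66% of all tested genes.

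**Figure D1:**
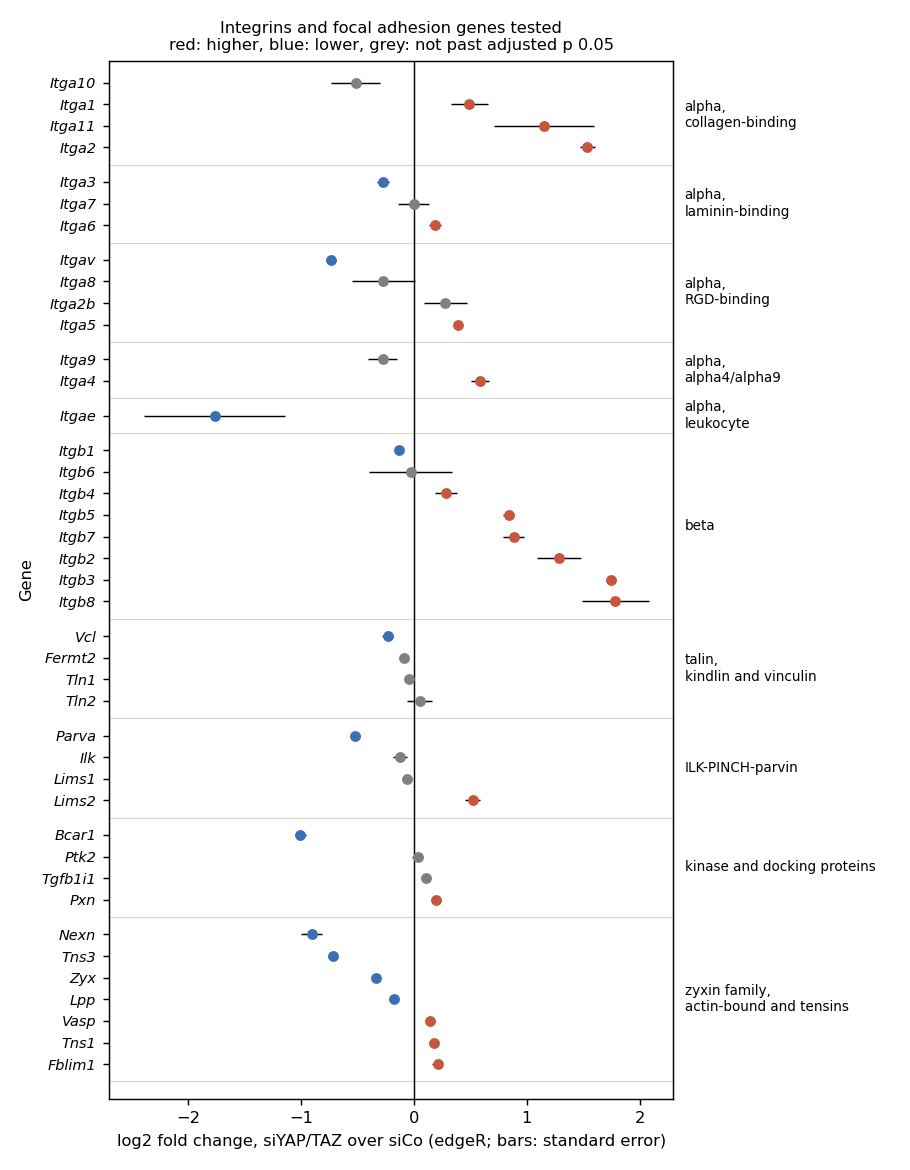
Log2 fold change (siYAP/TAZ over siCo, horizontal axis) of the 41 genes tested, by role, with the standard error of the edgeR fit as a bar. Red genes were higher, blue genes lower and grey genes not past an adjusted p of 0.05. Itgb8 and Itgb3 lie farthest to the right, at 1.79 and 1.75, and Itgae farthest to the left, at -1.76 on at most 19 counts per library.

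Beta chains are described first. Itgb3, the beta chain of the vitronectin receptor, lies on chromosome 11 of mm10 from 104608000 to 104670476 on the plus strand. It had 17.4 and 17.2 FPKM in the siCo libraries and 54.4 and 58.4 FPKM in the siYAP/TAZ libraries. Both siYAP/TAZ libraries stood far above both siCo libraries. It was 3.36-fold higher (log2 value 1.75, standard error 0.0481, adjusted p = 2.955e-17 from edgeR).
Itgb5, which also pairs with the alpha v chain to bind vitronectin, lies on chromosome 16 from 33829665 to 33949338 on the plus strand. It had 33.6 and 30.8 FPKM in siCo and 56.9 and 55.1 FPKM in siYAP/TAZ libraries, again without overlap. It was 1.79-fold higher (log2 fold change 0.84, standard error 0.0494, adjusted p = 4.79e-12 from edgeR). Per kilobase of exon, Itgb5 was thus the higher of these paralogs in both siCo libraries. In siYAP/TAZ libraries their ranges overlapped, at 54.4 and 58.4 FPKM for Itgb3 against 56.9 and 55.1 FPKM for Itgb5. This order depends on the exon lengths used, 5901 bases for Itgb3 and 3553 for Itgb5. In counts, Itgb5 was the higher in both siCo libraries, at 2200 and 1975 against 1892 and 1833. Itgb3 was the higher in both siYAP/TAZ libraries, at 6016 and 5923 counts against 3793 and 3366. The log2 change of Itgb3 exceeded that of Itgb5 by 0.90 (95% interval from 0.50 to 1.30).

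Itgb1, the most abundant beta chain and the partner of most alphas outside leukocytes, moved far less. It had 239 and 241 FPKM in siCo and 216 and 209 FPKM in siYAP/TAZ libraries. Both siYAP/TAZ values were lower (log2 fold change -0.13, standard error 0.0396, adjusted p = 0.007245 by edgeR). This call was lost with upper-quartile scaling (adjusted p = 0.05414 from edgeR) and without siYAP/TAZ replicate 2 (adjusted p = 0.1962 from edgeR).

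The remaining beta chains lay at lower levels. Itgb7, a chain known from lymphocytes, had 7.23 and 8.23 FPKM in siCo and 13.01 and 14.68 FPKM in siYAP/TAZ libraries, and was 1.85-fold higher (standard error of the log2 value 0.0888, adjusted p = 2.646e-08 from edgeR). Itgb2, the beta chain shared by leukocyte integrins, had 61 and 63 counts against 130 and 159 counts, a 2.44-fold increase (standard error of the log2 value 0.194, adjusted p = 7.764e-06 from edgeR). Neither gene had overlapping groups.
Itgb8, an alpha v partner known for activation of latent TGF-beta, had only 31 and 16 counts in siCo and 92 and 64 counts in siYAP/TAZ libraries. Its log2 fold change was 1.79 (standard error 0.297, adjusted p = 2.696e-05 from edgeR), and it stayed between 1.41 and 2.32 when each library was left out. Itgb4, the laminin-binding chain of hemidesmosomes, had 2.51 and 2.56 FPKM against 2.93 and 3.06 FPKM. Its rise of 0.29 on the log2 scale passed the test (adjusted p = 0.01541 from edgeR) but not DESeq2 (adjusted p = 0.1082), the fits on log2(FPKM + 1) and log2(FPKM + 0.1), or the fits without siCo replicate 1 and without siYAP/TAZ replicate 2. Itgb6, an epithelial chain, had 20 to 29 counts in every library and a log2 fold change of -0.03 (adjusted p = 0.9557 from edgeR).

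Among alpha chains, Itga5 held most of the mRNA. Itga5 encodes the alpha chain of the fibronectin receptor and lies on chromosome 15 from 103344286 to 103366763 on the minus strand. It had 307 FPKM in each siCo library and 388 and 394 FPKM in the siYAP/TAZ libraries. The increase was 1.31-fold (log2 fold change 0.39, standard error 0.038, adjusted p = 1.543e-08 from edgeR).
Itgav, the alpha v chain that Itgb3, Itgb5, Itgb6 and Itgb8 share, changed in the opposite direction to the partners that rose. It lies on chromosome 2 from 83724397 to 83806916 on the plus strand. It had 25.5 and 24.7 FPKM in siCo and 14.96 and 14.27 FPKM in siYAP/TAZ libraries. The fall was 1.66-fold (log2 fold change -0.74, standard error 0.0448, adjusted p = 9.16e-12 from edgeR). The ratio of Itgb3 to Itgav FPKM was 0.683 and 0.697 in siCo libraries and 3.63 and 4.09 in siYAP/TAZ libraries. For Itgb5 the same ratio went from 1.32 and 1.25 to 3.81 and 3.86. For Itgb1, which fell slightly as Itgav did, it went from 9.365 and 9.766 to 14.43 and 14.62. These ratios describe mRNA per kilobase of exon, so their size depends on the exon lengths used. The amounts of the assembled receptors were not measured.

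Itga8 and Itga2b complete the RGD-binding alphas, named for the short peptide of fibronectin and vitronectin that they recognize. Itga8, known from smooth muscle and kidney, had 33 to 46 counts per library and did not pass the test (log2 fold change -0.27, adjusted p = 0.4377 from edgeR). Itga2b, the alpha chain of the platelet fibrinogen receptor, had 80 to 103 counts and did not pass either (log2 fold change 0.28, adjusted p = 0.2292 from edgeR). The platelet and megakaryocyte markers held mostly Pf4 and summed to 18.9 and 20 FPKM in siCo against 15.7 and 13.8 FPKM in siYAP/TAZ libraries. Of the 3 tested, Ppbp was lower and Pf4 did not pass, and their part in the change of Itgb3 was not tested.

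Of the collagen-binding alphas, Itga2 changed most. It pairs with the beta 1 chain as a receptor for fibrillar collagen and lies on chromosome 13 from 114833081 to 114932100 on the minus strand. It had 4.78 and 5.43 FPKM in siCo and 14.4 FPKM in each siYAP/TAZ library, so the groups were far apart. The increase was 2.91-fold (log2 fold change 1.54, standard error 0.0635, adjusted p = 1.748e-14 from edgeR).
The other genes of this class were scarce. Itga1 had 111 and 98 counts against 134 and 147 counts (log2 fold change 0.49, adjusted p = 0.01555 from edgeR), and Itga11 had 13 and 9 counts against 19 and 28 counts (log2 fold change 1.16, adjusted p = 0.03151 from edgeR). Both calls were lost in DESeq2, without siCo replicate 2 and without siYAP/TAZ replicate 2. Without siYAP/TAZ replicate 2 the adjusted p from edgeR was 0.174 for Itga1 and 0.3446 for Itga11. Itga10, a collagen receptor of cartilage, had 77 and 86 counts against 53 and 56 counts (log2 fold change -0.51, adjusted p = 0.05066 from edgeR). It passed in 6 of 13 alternatives, and 33.5% of its exonic bases are also annotated to another gene on the same strand.

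The laminin receptors Itga3 and Itga6 moved apart. Itga3 had 19.6 and 21.7 FPKM in siCo and 16.7 and 16.5 FPKM in siYAP/TAZ libraries (log2 fold change -0.27, standard error 0.0542, adjusted p = 0.0002291 from edgeR). Itga6 had 17.4 and 19.01 FPKM against 20.3 and 19.9 FPKM (log2 fold change 0.19, standard error 0.0491, adjusted p = 0.002623 from edgeR), and this call was lost on log2(FPKM + 1), where limma gave an adjusted p of 0.09478. Per kilobase of exon, Itga3 was the higher of the pair in both siCo libraries and Itga6 in both siYAP/TAZ libraries. This order depends on the exon lengths used, 5710 bases for Itga3 and 9025 for Itga6. In counts, Itga6 was the higher in every library, at 2885 and 3093 against 2058 and 2229 in siCo. The log2 change of Itga3 differed from that of Itga6 by -0.46 (95% interval from -0.50 to -0.41). This interval rests on the spread of the libraries alone and is narrower than the 2 standard errors above would give. Itga7, the laminin receptor of muscle, had 181 to 236 counts with overlapping groups and a fitted log2 change of 0.00 after rounding (adjusted p = 0.9938 from edgeR).

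Itga4 and Itga9 bind VCAM-1, osteopontin and fibronectin. Itga4 rose from 2.88 and 2.36 FPKM to 4.00 and 3.64 FPKM, or 1.503-fold (standard error of the log2 value 0.0814, adjusted p = 2.597e-06 from edgeR). Itga9 had 1.61 and 1.99 FPKM against 1.48 and 1.41 FPKM (log2 fold change -0.27, adjusted p = 0.0778 from edgeR). It passed with scaling by library totals (adjusted p = 0.04157 from edgeR) and without siCo replicate 1 (adjusted p = 0.007775 from edgeR), so its place relative to the threshold depends on the fit. The log2 changes of Itga4 and Itga9 differed by 0.86, with a 95% interval from -0.42 to 2.14 that includes no difference.

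The leukocyte alphas, which pair with Itgb2 or Itgb7, were at or near the floor. Itgad had no count in any library. Itgal had 3 and 1 counts in siCo and 3 and 4 counts in siYAP/TAZ libraries, Itgam 1 and 5 against 0 and 0, and Itgax 0 and 2 against 2 and 1. Itgae, a partner of Itgb7 that binds E-cadherin, had 19 and 10 counts in siCo and 6 and 2 counts in siYAP/TAZ libraries. Its log2 fold change of -1.76 passed the test (standard error 0.626, adjusted p = 0.02119 from edgeR). It was -2.65 without siYAP/TAZ replicate 1 and lost the call without siYAP/TAZ replicate 2 (log2 fold change -1.24, adjusted p = 0.2396 from edgeR) and in DESeq2 (adjusted p = 0.1284).
Beside the rise of Itgb2 and Itgb7, of 9 macrophage markers 5 were at 0 in every library, namely Tyrobp, Adgre1, C1qa, C1qb and C1qc. Their sum was 8.22 and 8.69 FPKM in siCo and 11.1 and 14.2 FPKM in siYAP/TAZ libraries, nearly all of it Cd68. The 6 lymphocyte markers summed to at most 0.339 FPKM in any library. In bulk RNA, more cells of a type and more RNA per cell cannot be told apart.

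**Figure D2:**
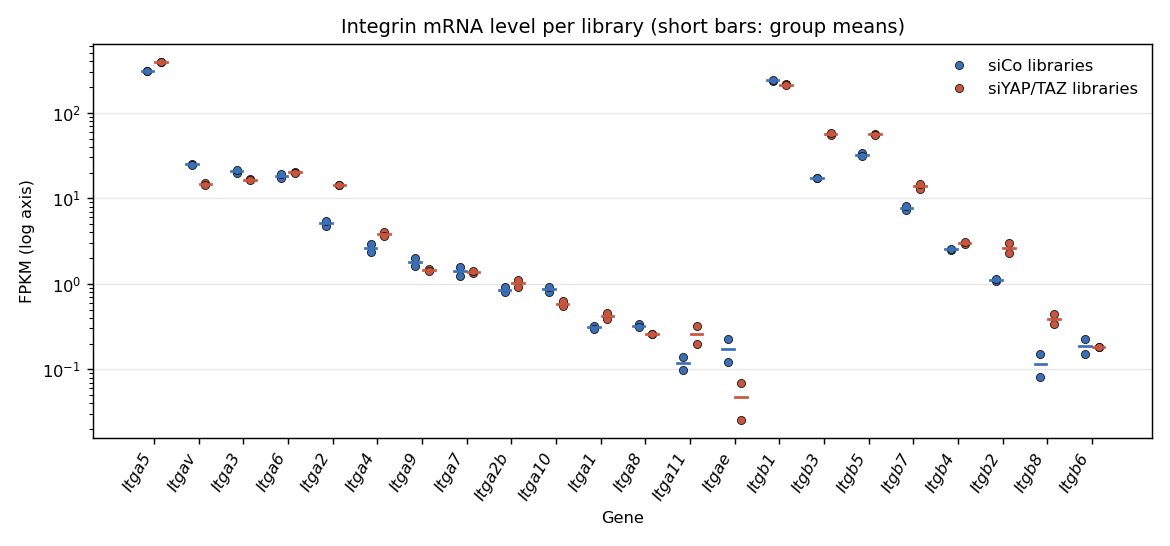
FPKM per library on a log axis for the 22 integrins tested, alphas on the left and betas on the right, each in order of level, with siCo in blue, siYAP/TAZ in red and group means as short bars. Itga5 and Itgb1 stand between 209 and 394 FPKM in all 4 libraries, Itgb3 and Itga2 show the widest gaps among genes that reach 5 FPKM, and Itgav is the abundant alpha whose siYAP/TAZ points lie well below its siCo points.

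The composition of the integrin mRNA pool followed from these values. Per library, each gene's FPKM was divided by the sum over its chain, and no test was run on these shares. Their size depends on the exon length used for each gene. Summed beta FPKM was 301 and 302 in siCo and 346 and 343 in siYAP/TAZ libraries. Itgb1 fell from 79.7% ± 0.478 (SD, n = 2) to 61.6% ± 1.15 (SD, n = 2) of it. Itgb3 went from 5.75% ± 0.054 to 16.4% ± 0.91, and Itgb5 from 10.7% ± 0.677 to 16.2% ± 0.289 (SD, n = 2 each). The beta pool was thus more evenly spread over its chains in both siYAP/TAZ libraries, although Itgb1 remained its largest part.
Summed alpha FPKM was 383 and 386 in siCo and 463 and 468 in siYAP/TAZ libraries. Itga5 made up 79.9% ± 0.477 and 83.9% ± 0.312 (SD, n = 2 each) of it. Itgav went from 6.52% ± 0.178 to 3.14% ± 0.127, and Itga2 from 1.33% ± 0.113 to 3.09% ± 0.0147 (SD, n = 2 each). Per kilobase of exon, Itgav and Itga2 were therefore about level in siYAP/TAZ cells. Itgav had 14.96 and 14.27 FPKM and Itga2 had 14.4 FPKM in each library. In counts Itgav was the higher, at 3014 and 2636 against 1921 and 1767.

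**Figure D3:**
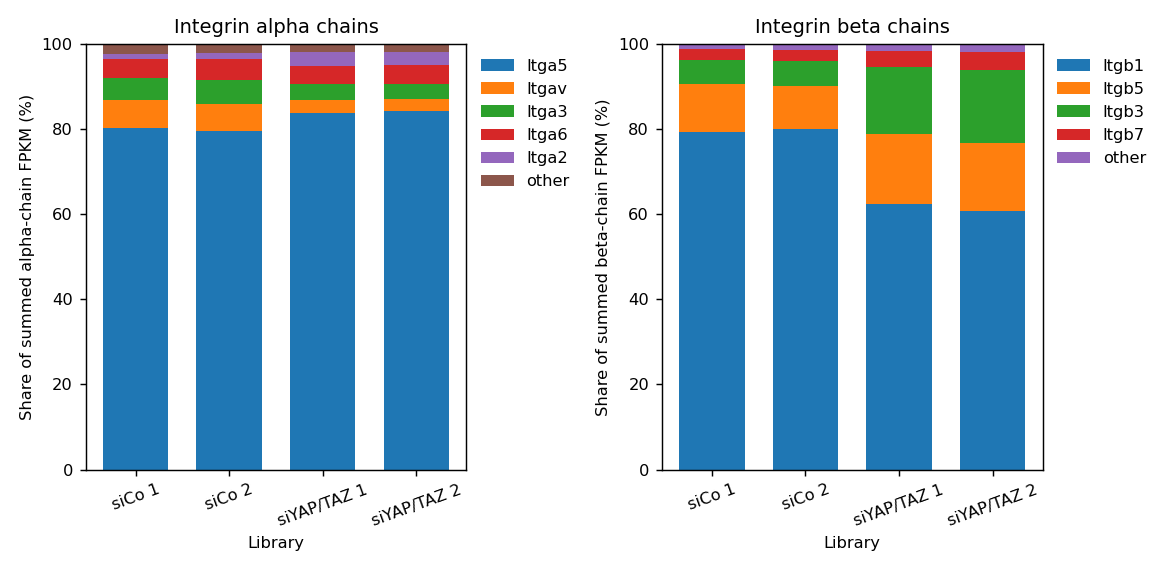
Share of integrins in the summed FPKM of their chain, in percent, as stacked bars for the 4 libraries. Alphas are on the left and betas on the right. Itga5, Itgav, Itga3, Itga6, Itga2, Itgb1, Itgb5, Itgb3 and Itgb7 are drawn singly, and the rest of each chain is pooled as other. Itgb1 takes 79.3% and 80.0% of the beta bar in siCo and 62.4% and 60.8% in siYAP/TAZ libraries, and Itgb3 and Itgb5 take up most of the difference.

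Of the 4 genes of talins, kindlin and vinculin, which link the integrin tail to actin, 1 passed the test, beside 55.4% of all tested genes. Tln1, the main talin and the protein that activates integrins, had 56.9 and 56.6 FPKM in siCo and 53.6 and 53.1 FPKM in siYAP/TAZ libraries (log2 fold change -0.04, standard error 0.0399, adjusted p = 0.366 from edgeR). Tln2, its paralog of muscle and brain, stayed at 0.88 to 1.10 FPKM (log2 fold change 0.05, adjusted p = 0.7234 from edgeR). Fermt2, or kindlin-2, had 39.3 and 39.7 FPKM against 36.7 and 35.7 FPKM (log2 fold change -0.08, adjusted p = 0.1133 from edgeR), and it passed only with library totals and on the 2 FPKM scales. Vcl, or vinculin, which is recruited to adhesions under tension, fell from 19.6 FPKM in each siCo library to 16.3 and 16.1 FPKM, or 1.17-fold (standard error of the log2 value 0.0455, adjusted p = 0.0001767 from edgeR). The exons of Vcl share 25.5% of their bases with Ap3m1 on the opposite strand, and whether the counting used strand is not stated.

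In the complex of ILK, PINCH and parvin, 1 of 4 genes fell and 1 rose, beside 27.7% and 27.6% of all tested genes. Parva, or alpha-parvin, which links ILK to actin, had 22.6 and 22.0 FPKM in siCo and 15.4 and 14.7 FPKM in siYAP/TAZ libraries. The fall was 1.44-fold (log2 fold change -0.52, standard error 0.045, adjusted p = 2.483e-09 from edgeR). Lims2, or PINCH-2, rose from 12.3 and 12.5 FPKM to 16.7 and 17.8 FPKM, or 1.44-fold (standard error of the log2 value 0.0679, adjusted p = 1.092e-06 from edgeR). Its paralog Lims1, or PINCH-1, had 44.5 and 44.1 FPKM against 41.7 and 40.9 FPKM (log2 fold change -0.06, adjusted p = 0.2803 from edgeR). The log2 change of Lims1 minus that of Lims2 was -0.58 (95% interval from -0.86 to -0.30), and Lims1 remained the more abundant PINCH in all 4 libraries. Ilk, the pseudokinase at the center of the complex, had 21.3 FPKM in each siCo library and 19.3 and 18.7 FPKM in siYAP/TAZ libraries (log2 fold change -0.12, adjusted p = 0.101 from edgeR). It passed with library totals and on the 2 FPKM scales. Since 76.8% of its exonic bases are also annotated to Taf10 on the opposite strand, the count of Ilk is uncertain.

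Among kinases and docking proteins, Bcar1 changed most. Bcar1, or p130Cas, is a docking protein that is phosphorylated when it is stretched, and it lies on chromosome 8 from 111710474 to 111743809 on the minus strand. It had 39.5 and 41.2 FPKM in siCo and 20.3 and 18.7 FPKM in siYAP/TAZ libraries. The fall was 2.01-fold (log2 fold change -1.004, standard error 0.051, adjusted p = 4.743e-13 from edgeR). The kinase Ptk2, or FAK, had 9.21 to 9.54 FPKM in all 4 libraries with overlapping groups (log2 fold change 0.03, adjusted p = 0.5795 from edgeR). Pxn, or paxillin, rose from 35.3 and 36.8 FPKM to 39.9 and 40.3 FPKM (log2 fold change 0.20, standard error 0.0424, adjusted p = 0.0004433 from edgeR). Its paralog Tgfb1i1, or Hic-5, had 27.0 and 27.3 FPKM against 28.1 and 28.5 FPKM (log2 fold change 0.11, adjusted p = 0.05327 from edgeR) and passed in 5 of 13 alternatives.

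All 7 genes of the zyxin family, the tensins and the actin-bound proteins passed the test, 4 of them lower. All 7 averaged 5 FPKM or more, where 67.7% of all tested genes passed. Nexn, or nexilin, an actin-binding protein of striated and smooth muscle, fell from 8.33 and 9.29 FPKM to 4.43 and 4.70 FPKM, or 1.87-fold (standard error of the log2 value 0.0904, adjusted p = 2.407e-08 from edgeR). Tns3 fell from 33.7 and 34.5 FPKM to 20.2 and 19.97 FPKM, or 1.65-fold (standard error of the log2 value 0.0422, adjusted p = 4.969e-12 from edgeR). Both had groups far apart.
The tensins connect integrin tails to actin, and Tns1, the paralog of Tns3 in this set, went the other way. It had 15.5 and 15.8 FPKM in siCo and 17.4 and 16.9 FPKM in siYAP/TAZ libraries (log2 fold change 0.18, standard error 0.0425, adjusted p = 0.001218 from edgeR), a call lost on log2(FPKM + 1), where limma gave an adjusted p of 0.05553. The log2 change of Tns1 exceeded that of Tns3 by 0.90 (95% interval from 0.85 to 0.94). This interval, too, rests on the spread of the libraries alone and is narrower than the edgeR standard errors would give.
Zyx, or zyxin, which gathers at strained actin fibers, fell from 101 and 97.9 FPKM to 76.4 and 76.0 FPKM, or 1.26-fold (standard error of the log2 value 0.0407, adjusted p = 3.658e-07 from edgeR). Its relative Lpp, a LIM protein prominent in smooth muscle, fell 1.13-fold (standard error of the log2 value 0.0433, adjusted p = 0.001732 from edgeR), from 10.7 and 10.95 FPKM to 9.23 and 9.35 FPKM. Fblim1, or migfilin, rose 1.16-fold (standard error of the log2 value 0.047, adjusted p = 0.0005881 from edgeR). Vasp, which elongates actin filaments, had 89.98 and 93.9 FPKM against 97.3 and 99.6 FPKM. Its rise of 0.14 on the log2 scale (adjusted p = 0.008491 from edgeR) did not pass with library totals, on either FPKM scale or without siYAP/TAZ replicate 2.

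**Figure D4:**
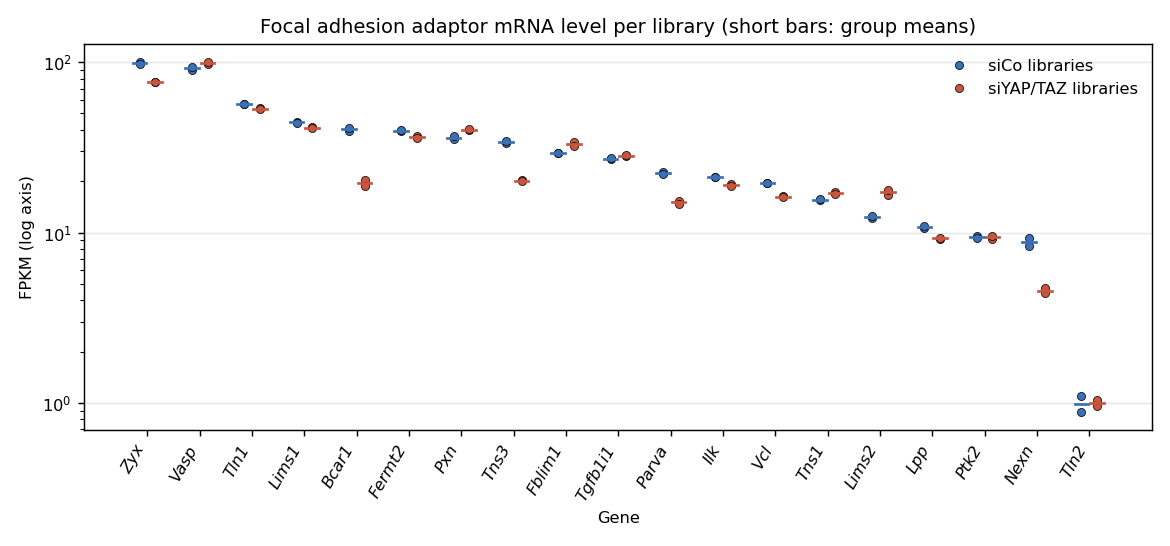
FPKM per library on a log axis for the 19 adaptor genes in order of their siCo level, with siCo in blue, siYAP/TAZ in red and group means as short bars. Most pairs of groups lie close together, and Bcar1, Tns3, Parva and Nexn are the genes whose siYAP/TAZ points are clearly lower.

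For 10 pairs of related members, the change was compared within libraries, so that scaling cancels. An exact permutation test (two-sided) cannot go below 0.3333 with 2 libraries in each group. It gave that p for 9 pairs and 0.6667 for Tln1 and Tln2, with adjusted values of 0.3704 and 0.6667, so no pair could pass. The 95% intervals quoted here come from a least-squares fit with 2 residual degrees of freedom. That fit uses only the spread between libraries of a group, which can fall below the error of counting. For Itga3 and Itga6, Tns1 and Tns3, Itga5 and Itga8, and Pxn and Tgfb1i1, the edgeR standard errors would give wider intervals. That of Itga8, at 33 to 46 counts, was 0.281. The printed intervals of these pairs overstate the precision. The least-squares intervals excluded no difference for Itgb3 and Itgb5, Itga3 and Itga6, Tns1 and Tns3, and Lims1 and Lims2. They also excluded it for Itga5 and Itga8 (0.65, from 0.37 to 0.94) and, narrowly, Pxn and Tgfb1i1 (0.09, from 0.00 to 0.18). They included no difference for Zyx and Lpp (-0.16, from -0.35 to 0.02), Itga1 and Itga11 (-0.63, from -1.77 to 0.51), Itga4 and Itga9, and Tln1 and Tln2 (-0.11, from -0.85 to 0.64).

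YAP and TAZ do not bind DNA themselves and act through TEAD factors, often beside AP-1, while many contractile and adhesion genes carry the CArG box bound by SRF. Promoters were therefore searched for the core letters GGAATG (TEAD) and TGANTCA (AP-1) and for the CArG box, on both strands and with overlaps between motifs allowed. RefSeq sequences on GRCm38.p6 were held for 30 of the 45 genes (38 starts), and the window was the 250 bases upstream of each start. A TEAD core lay in 5 of the 38 windows, those of Fblim1, Itga10, Itgb1, Lpp and Vcl, beside 12.6% of all 32851 promoters. AP-1 letters lay in 3 of the 38, of Fblim1, Itgax and Zyx (6.75% of all promoters), and the CArG box in 3 of the 38, of Fermt2, Itgb6 and Vcl (1.47% of all promoters). The matching windows of Lpp (chr16:24721605-24721854) and Itgb6 (chr2:60673694-60673943) lie inside these genes, which run from 24393507 to 24992578 and from 60598292 to 60722643. Their starts are therefore internal ones. A match is a description of the letters and not a measured binding site.
The windows shown are those of the genes with the largest rise and the largest fall among members with a sequence and at least 5 FPKM in the higher group (Itga2 and Bcar1) and the pair whose window held 2 kinds of motif (Vcl and Fblim1). Where RefSeq lists several starts, the first listed is shown. Capitals mark motif matches, and each runs 5′ to 3′ along the gene's strand.
Itga2, chr13:114932101-114932350, minus strand: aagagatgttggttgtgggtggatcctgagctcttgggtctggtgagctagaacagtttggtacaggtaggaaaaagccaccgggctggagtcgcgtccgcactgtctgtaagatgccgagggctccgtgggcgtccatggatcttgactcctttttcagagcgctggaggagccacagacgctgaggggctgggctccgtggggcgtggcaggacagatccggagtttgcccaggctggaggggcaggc
Bcar1, chr8:111743850-111744099, minus strand: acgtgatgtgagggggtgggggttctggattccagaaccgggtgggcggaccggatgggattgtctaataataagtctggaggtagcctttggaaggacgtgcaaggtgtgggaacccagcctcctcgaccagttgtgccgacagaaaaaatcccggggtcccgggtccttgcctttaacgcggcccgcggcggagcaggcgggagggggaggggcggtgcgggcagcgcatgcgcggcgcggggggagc
Vcl, chr14:20929148-20929397, plus strand: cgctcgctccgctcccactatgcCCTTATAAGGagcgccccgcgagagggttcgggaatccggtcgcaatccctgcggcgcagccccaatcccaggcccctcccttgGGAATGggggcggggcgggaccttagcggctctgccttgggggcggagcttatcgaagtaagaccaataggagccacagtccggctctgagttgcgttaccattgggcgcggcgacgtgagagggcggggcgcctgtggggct
Fblim1, chr4:141606053-141606302, minus strand: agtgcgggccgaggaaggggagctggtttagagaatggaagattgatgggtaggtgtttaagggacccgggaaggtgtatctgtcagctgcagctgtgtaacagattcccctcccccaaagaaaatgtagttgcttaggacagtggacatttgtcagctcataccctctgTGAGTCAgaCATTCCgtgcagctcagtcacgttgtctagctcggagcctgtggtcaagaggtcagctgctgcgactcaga
The capitals in Vcl are a CArG box that begins 227 bases and a TEAD core that begins 143 bases before the start, and those in Fblim1 are AP-1 letters at 80 and a TEAD core on the opposite strand at 71 bases. Vcl fell and Fblim1 rose, both by less than 1.5-fold, and the windows of Itga2 and Bcar1 held none of the 3 motifs.

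Other genes of the same adhesions were taken from a list of 68 that are not in the set. Of the 63 tested, 12 were higher and 26 lower at an adjusted p under 0.05 from edgeR (60.3% against 55.4% of all tested genes). Their median log2 fold change was -0.04. Among genes averaging 5 FPKM or more, 34 of 54 passed, beside 67.7% of all such genes. With upper-quartile scaling the split was 19 higher and 24 lower, and that of all 15479 genes was 4695 higher and 3847 lower, against 4279 and 4290 with TMM. Itgb1bp1, or ICAP-1, which binds the beta 1 tail in competition with talin, had 10.2 and 11.02 FPKM in siCo and 2.35 and 2.60 FPKM in siYAP/TAZ libraries and was 4.15-fold lower (standard error of the log2 value 0.101, adjusted p = 2.675e-13 from edgeR). Ajuba, a LIM protein that binds LATS kinases, fell 3.501-fold (standard error of the log2 value 0.0886), and Pdlim5, a LIM protein bound to alpha-actinin, fell 1.83-fold (standard error 0.0502). Ptk2b, the FAK relative PYK2, rose 2.08-fold (standard error of the log2 value 0.0697, adjusted p = 3.103e-11 from edgeR), unlike Ptk2. Arhgap22 and Efs, the latter a relative of Bcar1, rose 1.31-fold and 1.30-fold.

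Of 57 genes of integrin ligands, 50 were tested, with 31 higher and 12 lower at an adjusted p under 0.05 from edgeR (86% against 55.4% of all tested genes). Their median log2 fold change was 0.27. Among genes averaging 5 FPKM or more, 32 of 34 passed, beside 67.7% of all such genes. This list and that of other focal adhesion genes were chosen with earlier results of these data known, so their shares are descriptions only. Ccn3, a matricellular ligand, had 13.8 and 14.6 FPKM in siCo and 60.5 and 59.1 FPKM in siYAP/TAZ libraries, 4.35-fold higher (standard error of the log2 value 0.054, adjusted p = 7.848e-18 from edgeR). Its relatives Ccn2 and Ccn1, which are known targets of YAP/TAZ, fell 5.34-fold and 3.40-fold. Thbs1 fell 3.62-fold, from 447 and 435 FPKM to 123 and 113 FPKM, and its paralog Thbs2 rose 3.22-fold, from 30.7 and 23.9 FPKM to 87.4 and 82.7 FPKM. Icam2, a ligand of leukocyte integrins, rose 3.19-fold. The largest adjusted p among Ccn1, Ccn2, Thbs1, Thbs2 and Icam2 was 2.646e-09 from edgeR, for Icam2.

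**Figure D5:**
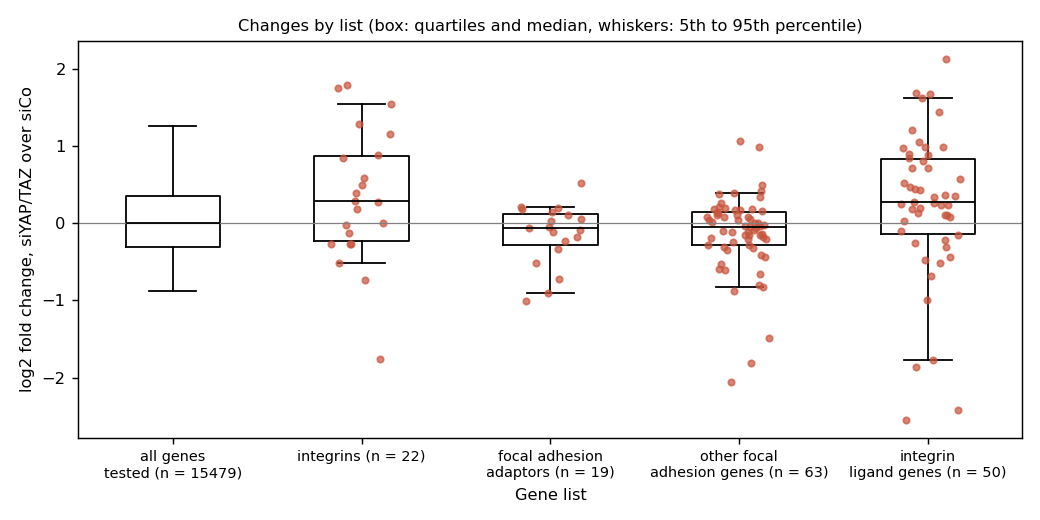
Log2 fold change (siYAP/TAZ over siCo, vertical axis) for all 15479 genes tested, the 22 integrins, the 19 adaptors, 63 other focal adhesion genes and 50 ligand genes, with quartile boxes, whiskers from the 5th to the 95th percentile and a point per gene in each of the 4 lists. The 19 adaptors lie between -1.004 and 0.52, while integrins reach 1.79 and ligands 2.12 at the upper end.

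Markers of other cell types also differed between the groups. All 5 tested fibroblast markers were higher, with the 6 listed summing to 165 and 140 FPKM in siCo and 250 and 247 FPKM in siYAP/TAZ libraries, and 4 of 6 pericyte markers were higher (40.1 and 34.8 against 71.7 and 70.1 FPKM). Smooth muscle markers summed to 285 and 284 FPKM against 153 and 148 FPKM, with 5 of 8 lower and 1 higher. Endothelial markers summed to 85.1 and 84.7 against 85.9 and 89.5 FPKM, with 4 higher and 2 lower of 7. Epithelial markers summed to 5.95 and 7.39 FPKM against 16.9 and 15.4 FPKM, and the 2 that were higher, of 4 tested, were Krt8 and Krt18. The 5 skeletal muscle markers summed to 21.9 and 19.3 FPKM against 1.5 and 0.969 FPKM, nearly all of it Acta1, with both tested genes lower and Myod1 and Myog at 0 in every library. The part of these markers in the integrin changes was not tested.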

How the data were processed

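Used here were the 4 bulk RNA-seq libraries of mouse SMCs (2 siCo, 2 siYAP/TAZ). Not analysed here were 2 single-nucleus samples. The authors deposited raw counts per Ensembl gene and FPKM values. Trimmomatic, HISAT2 and mm10 are named in the submitters' processing notes, without versions. For RNA-seq of tissue, the study's methods describe counting of uniquely mapped reads with featureCounts. No source used here gives the strand setting, so genes that share exonic bases on opposite strands cannot be separated. FPKM was computed from the counts as count per kilobase of exon, scaled to the library's total count. This gave the deposited FPKM of all 55573 genes in both siCo libraries within 0.006. Orders, ratios and shares of FPKM between genes depend on the deposited exon lengths, which may differ from those of the expressed transcripts. The 2 deposited FPKM columns of siYAP/TAZ libraries were not used, because they could not be matched to single samples. The count columns of siYAP/TAZ libraries show only the group, so replicates 1 and 2 follow their order in the table. Of 55630 rows, 57 name no gene and hold 0 counts. Between libraries of a group the mean chi-square per gene was 3.34 (siCo) and 2.00 (siYAP/TAZ), so none was a duplicate.

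The test was that of edgeR 4.0.16 under R 4.3.3 (TMM scaling, a filterByExpr minimum count of 10, quasi-likelihood test with 18.6 prior and 2 residual degrees of freedom, Benjamini-Hochberg adjustment over all genes tested). Standard errors on the log2 scale were derived as |log2 fold change| over the root of F. The fits were tested on simulated data. Alternatives were DESeq2 1.42.0, other scalings and filters, limma 3.58.1 on log2(FPKM + 1) and log2(FPKM + 0.1), edgeR's robust option, the table's replicate order as a block, and each library omitted in turn. Leaving out libraries for the pairs of related genes was added after seeing the data. The members and gene lists were chosen with earlier results of these data known. All members are described, and from each further list the 3 largest rises and falls past the threshold reaching 5 FPKM in a group, without overlap between groups. The promoters of Vcl and Fblim1 were chosen after their motifs were seen. Gene coordinates are those of the table and matched GENCODE M21 of GRCm38 (mm10) for all 45 members. Python 3.11.15, pandas 2.3.3 and matplotlib 3.10.9 were used.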

Additional observations from a re-analysis of the deposited data

How the results depend on the processing

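Of the 28 genes past the threshold, 20 kept their direction and their call in every one of the 13 alternatives that tested them, among them Itgb3, Itgb5, Itga2, Itga5, Itgav, Bcar1, Tns3, Nexn, Parva and Lims2. The other 8 (Itga1, Itga11, Itga6, Itgae, Itgb1, Itgb4, Vasp and Tns1) lost the call in at least 1 alternative without a change of direction. The number of higher members was 10 with limma on log2(FPKM + 1) and also on log2(FPKM + 0.1), where 3 of the 17 higher genes fell below the filter of 0.5 FPKM and 4 lost the call. It was 13 to 17 when each library was left out. The number of other focal adhesion genes higher was 19 with upper-quartile scaling, which raised the median change of all genes from 0.00 to 0.04. Genes near 0 that passed in no fit changed sign. Itga7 was 0.0391 with upper-quartile scaling, 0.0125 with a minimum of 50 counts in 2 libraries, 0.0017 with the replicate block and from -0.16 to 0.18 when each library was left out. Itgb6 was 0.0127 with upper-quartile scaling and from -0.29 to 0.28 without single libraries, Tln2 from -0.10 to 0.22, and Ptk2 was -0.0103 with library totals, -0.0092 on log2(FPKM + 1) and -0.0101 on log2(FPKM + 0.1). The difference between Tln1 and Tln2 ranged from -0.2651 to 0.0539 without single libraries. Shares of a chain do not depend on library scaling. With the table's replicate order as a block, 18 members were higher and 12 lower, and deviations of same-numbered libraries had a correlation of 0.0077, so the numbers were not taken as pairs. Itgae, Itga11, Itgb6 and Itga8 rest on fewer than 50 counts in every library, and all genes on 2 libraries per group.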
